A study of Meloidogyne incognita with 75 samples.

Results

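Single males of the root-knot nematode Meloidogyne incognita were compared with single fourth-stage juveniles caught in the moult. The comparison took 21 of the 75 libraries of the series, the 7 titled male and the 14 titled J4_moulting, chosen by their titles alone. Each library was made by a low-input Smart-seq2 protocol from 1 animal that had been picked under a microscope, staged by its shape and punctured in lysis buffer. No strain, host plant, treatment or age is given for either group, and all animals are of the same species. The male libraries carry a stage tag that reads J4_male, so the labels leave unsaid whether these animals had completed the last moult. The sex of the moulting animals is not given either. Another group, the 8 libraries titled J4, was used to mark which transcripts belong to the moult. RNA of whole animals was measured, so fewer cells of a type and less RNA per cell cannot be told apart.

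Root-knot nematodes settle in a plant root as juveniles, swell, and pass through juvenile stages that do not feed. In a moult the epidermis lays down a new cuticle beneath the old one, which is then shed. Females stay swollen and sedentary, whereas an animal that develops as a male lengthens inside the old cuticle, regains the shape of a worm and leaves the root. Meloidogyne incognita reproduces without fertilisation, and its males are not needed for reproduction. The identifiers of the transcripts are given as the files have them. No annotation was used here, so no transcript is given a name or a function, and no cuticle, sperm or other marker could be checked.

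Male libraries were sequenced more deeply and yet held fewer transcripts. Total counts ran from 17927727 to 27648667 in male and from 9727803 to 26234699 in J4_moulting (two-sided exact permutation test of the means, p = 0.0189, 7 against 14 libraries). Male libraries held 25832 ± 3342 transcripts with 1 count or more (SD, n = 7), and J4_moulting libraries held 33095 ± 3962 (SD, n = 14), a difference of -7263 (two-sided exact permutation test, p = 0.000757). With every library thinned to 3000000 counts the difference was -7261 (p = 0.000550, same test). Both groups were mixed. On the first component of the 2000 most variable transcripts every male stood above every moulting animal, and male replicates 2, 3 and 4 stood farthest out, at 208 to 216, against 58.2 to 158 for male replicates 1, 5, 6 and 7. On the second component moulting replicates 2, 6, 7, 9 and 14 lay between 62.0 and 89.1, replicates 1 and 10 at 15.6 and 24.7, and replicates 3, 4, 5, 8, 11, 12 and 13 between -79.9 and -35.0. The median Spearman correlation over the transcripts tested was 0.722 among males, 0.764 among moulting animals and 0.588 between the groups. The moulting animals nearest to the males were replicates 14 and 10, with median correlations of 0.689 and 0.668. No library was moved or dropped on this ground, and results that rest on some of the males are given with and without them.

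**Figure D1:**
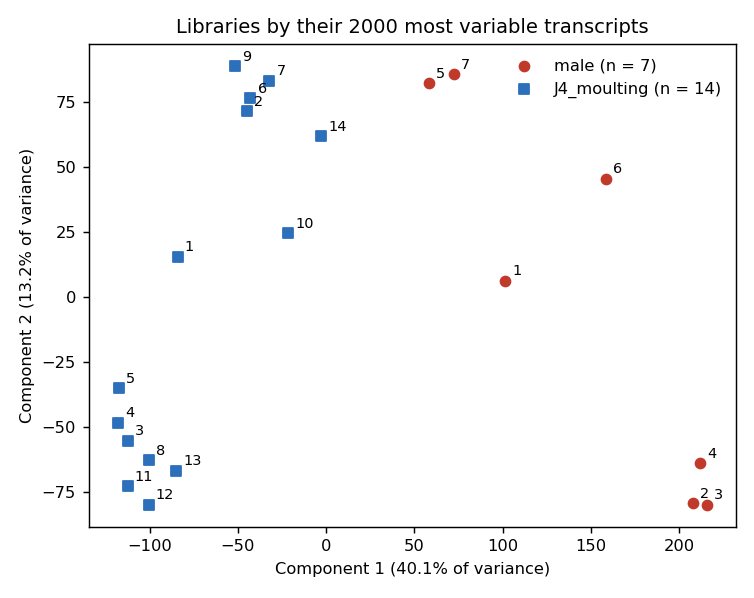
Principal components of the 21 libraries over their 2000 most variable transcripts, each point a library marked with its replicate number, the axes in component units. All 7 males lie to the right of all 14 moulting animals, with male replicates 2, 3 and 4 apart from the rest of their group at 208 to 216 on component 1.

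Males and moulting animals differed widely. More transcripts were lower in male than higher in the full table, and about as many in the deposited filtered table, with 2481 lower and 2538 higher. Of 31948 transcripts with enough counts, 8629 were called, or 27%, at an adjusted p under 0.05 and a change of at least 2-fold. Of these, 3417 were higher in male (10.7%) and 5212 lower (16.3%). The decreases were the larger changes as estimated. Their log2 fold changes had a median of -4.36, and those of the increases 2.76. The change was 10-fold or more in 3632 of the 5212 decreases and in 1408 of the 3417 increases. Of the transcripts that fell, 915 had no count in any male library, and 0 of those that rose were without a count in all 14 moulting libraries. These counts cannot be set against each other, because the groups differ in size and such transcripts passed the filter on low counts only through the group that held them. The size of a fall to no count is not fixed by the counts, so the medians and the 10-fold counts are not like for like either.

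The direction of the calls changed with the level of the transcript. Among the 13334 transcripts whose higher group mean lay between 1 and 10 CPM (counts per 1000000 of the library total), 2.89% rose and 18.7% fell. Of the 2159 with both group means under 1 CPM, 0 rose and 588 fell (27.2%). Between 10 and 100 CPM 16.6% of 13971 rose and 11.3% fell. Among the 2368 between 100 and 1000 CPM it was 29.0% and 21.2%, and of the 116 at 1000 CPM or more 31 rose and 47 fell. Over all transcripts tested the median log2 fold change was -0.36, and it was -0.50 with DESeq2 size factors and -0.52 with total counts alone, so the balance of directions rests in part on the scaling. With these scalings 35.1 and 32.1% of the calls were higher, against 39.6% here.

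**Figure D2:**
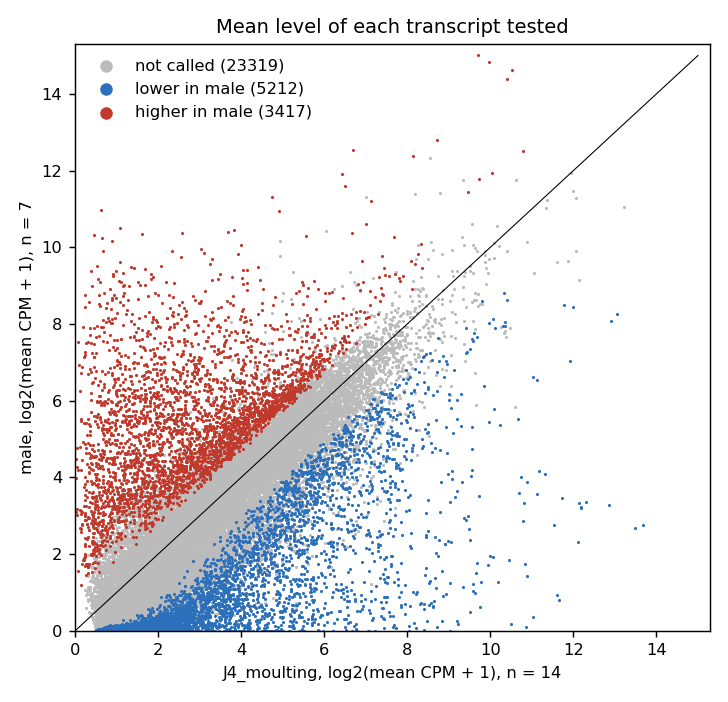
Mean level of each of the 31948 transcripts in male (vertical axis) against J4_moulting (horizontal axis), both as log2(mean CPM + 1), with the line of equal levels. The 3417 transcripts called higher lie above the line and the 5212 called lower below it, many of the latter on the axis at or near 0 in male.

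Fewer than all calls were kept with part of the males left out. The fit without male replicates 2, 3 and 4 kept 2309 of the 3417 increases and 2817 of the 5212 decreases, and that without replicates 1, 5, 6 and 7 kept 2450 and 2343. In both fits together 1569 increases (45.9%) and 1325 decreases (25.4%) were called, with fewer males in each fit. Every male was above the median of the moulting animals for 1463 of the 3417 transcripts, and every male was below it for 5013 of the 5212. Both lists were chosen by their levels in male, and these shares were not taken over all transcripts tested. For 381 of the increases all 7 males stood above all 14 moulting animals, as they did for 382 (1.2%) of all transcripts tested. The groups were fully apart in the other direction for 347 of the decreases, against 354 (1.11%) of all tested.

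The transcripts that fell with the smallest p were of 2 kinds, some missing from males and some reduced in them. Mi_16111.1 had no count in any male, while the moulting animals held 5.70 to 60.4 CPM with a median of 23.8. With the male group set to 3 counts in all, the floor used throughout, its pooled level was at least 1361-fold lower (edgeR adjusted p = 1.03e-07). This floor covers counting error only and leaves out the spread between animals. Mi_11740.1 ran from 0 to 0.446 CPM in male, median 0.186, and from 15.3 to 129 CPM in J4_moulting, median 48.9 (log2 fold change -8.22, SE 0.83, adjusted p = 6.64e-07). Both transcripts were common in the sedentary stages as well, at 142 and 288 CPM on average in J3. Mi_14487.1 was at 0 to 0.421 CPM in male and 9.06 to 73.8 in J4_moulting, median 33.9 (-8.56, SE 0.92, adjusted p = 1.35e-06). Mi_09055.1 had no count in male and stood at 1.04 to 13.5 CPM in the moulting animals, at least 353-fold lower by that floor (adjusted p = 2.60e-06). The other pair stayed present. Mi_30685.1 ran from 7.36 to 18.8 CPM in male, median 9.07, and from 42.9 to 317 in J4_moulting, median 132 (-3.36, SE 0.39, adjusted p = 3.24e-06). Mi_05247.1 ran from 30.4 to 107 CPM in male, median 63.5, and from 251 to 1244, median 611 (-2.97, SE 0.35, adjusted p = 3.88e-06). For all 6 transcripts the groups did not overlap, which a choice by smallest p favours.

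The transcripts that rose with the smallest p were present in every male and did not overlap with the moulting animals. Mi_00115.1 ran from 5.31 to 48.96 CPM in male, median 8.10, and the moulting libraries held 2 counts of it together, both in replicate 2. The ratio of the pooled levels was 2345 (95% exact counting interval 649 to 19374, edgeR adjusted p = 6.83e-08). Males fell into a low and a high set for this transcript, with replicates 1 to 4 at 8.10 CPM or less and replicates 5, 6 and 7 at 36.5 CPM or more. Mi_20244.1 ran from 93.0 to 354 CPM in male, median 186, and from 1.69 to 15.4 in J4_moulting, median 5.26 (log2 fold change 5.41, SE 0.43, adjusted p = 6.83e-08). Mi_10098.1 ran from 42.2 to 491 CPM, median 166, against 4.56 to 15.4, median 6.56 (5.25, SE 0.42, adjusted p = 6.83e-08). Mi_02925.1 was the most even, at 173 to 327 CPM in male, median 234, against 15.6 to 48.96, median 26.1 (3.26, SE 0.26, adjusted p = 7.18e-08). Mi_05127.1 stood at 148 to 423 CPM against 2.12 to 22.6 (5.33, SE 0.45), and Mi_34667.1 at 242 to 598 CPM against 3.04 to 30.6 (5.34, SE 0.45), each with an adjusted p of 1.03e-07. Mi_34667.1 averaged 22.04 CPM in J4_female and 2.19 CPM in female, so its mean in male was also above the means of both female stages.

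The transcripts with the largest gain in mean level rested on 3 of the 7 males. Mi_25779.1 stood at 97776, 54826 and 76545 CPM in male replicates 2, 3 and 4, and at 200, 21.5, 13.3 and 20.5 CPM in replicates 1, 5, 6 and 7. The moulting animals ran from 11.6 to 5015 CPM with a median of 160, so that 3 males lay far above them and 4 within their range. The transcript passed the test over all males at 5.73 on the log2 scale (SE 1.60, edgeR adjusted p = 0.0105), and without replicates 2, 3 and 4 it was at -3.78 with an adjusted p of 0.142. Mi_42693.2, Mi_25788.1 and Mi_17692.2 split the males in the same way. They stood at 56707 to 85128, 51992 to 63967 and 40851 to 60341 CPM in those 3 males. In the other 4 males they were at most 86.3, 105 and 444 CPM. Their log2 fold changes of 5.31, 4.55 and 4.39 (adjusted p = 0.0196, 0.0292 and 0.0292) became -5.21, -5.35 and -3.33 without the 3 males, none of them past the threshold. By limma voom none of the 4 increases passed (adjusted p = 0.170, 0.288, 0.372 and 0.127). Moulting replicates 7 and 10 held these 4 transcripts at 4919 to 8036 CPM, above all other moulting animals.

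The largest losses in mean level came from transcripts that were high in some moulting animals. Mi_41897.1 ran from 4.04 to 81864 CPM in J4_moulting, median 129, and from 0 to 19.1 CPM in male, median 0.543 (log2 fold change -11.71, SE 3.04, edgeR adjusted p = 0.00681). Moulting replicates 2, 6, 7 and 9 held 16012 to 81864 CPM of it and replicate 14 held 3816, while the other 9 held 441 or less. Mi_15580.1 ran from 0.343 to 78139 CPM with a median of 62.7, against at most 18.9 in male (-11.58, SE 3.11, adjusted p = 0.00825). Mi_18046.1 ran from 0 to 29650 CPM with a median of 558, against at most 37.8 in male (-10.29, SE 2.84, adjusted p = 0.00976). Each of these 3 overlapped between the groups, since some moulting animals were as low as the males, and by limma voom none passed (adjusted p = 0.359, 0.424 and 0.414). Without male replicates 2, 3 and 4, Mi_15580.1 and Mi_18046.1 also missed the threshold (adjusted p = 0.0551 and 0.0574). Mi_05756.1 was more widely held, at 830 CPM or more in all moulting animals but replicate 14, which had 15.8. In male it ran from 0 to 1818 CPM, with 0.205 or less in replicates 2, 3 and 4 (-4.96, SE 1.78, adjusted p = 0.0408). Leaving out male replicate 3, 5, 6 or 7, or moulting replicate 1, 2, 5 or 9, ended this call, with adjusted p values from 0.0501 to 0.0690.

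**Figure D3:**
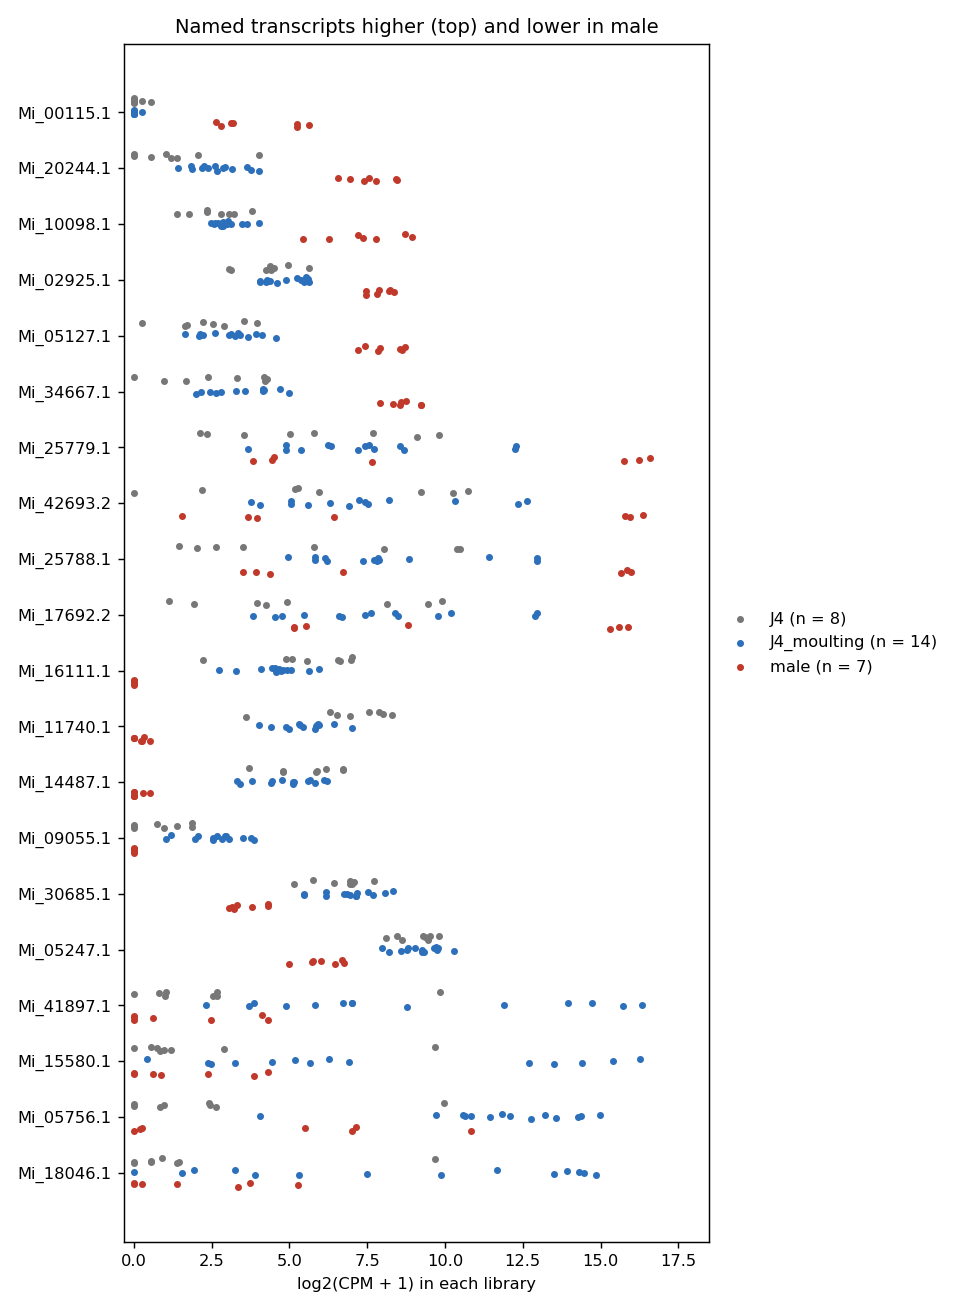
Level of the named transcripts in each library as log2(CPM + 1), the first 10 rows called higher and the last 10 lower in male. Grey points are J4, blue J4_moulting and red male. The first 6 rows of each set keep males and moulting animals apart, while Mi_25779.1, Mi_42693.2, Mi_25788.1 and Mi_17692.2 split the males into 3 high and 4 low libraries.

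Which transcripts of the moult were still present in males was asked of 1651 transcripts that were higher in J4_moulting than in J4, called by the same rule among 32417 tested (5.09%). No male library entered that choice. Their summed share was 24.97 ± 5.86% of all counts in J4_moulting (SD, n = 14), 2.13 ± 0.855% in J4 (n = 8) and 13.3 ± 8.26% in male (n = 7). In male replicates 2, 3 and 4 they held 4.81 to 5.11%, and in replicates 1, 5, 6 and 7 14.7 to 24.0%. Of the 1651, 616 were lower in male than in J4_moulting (37.3%, against 16.3% of all transcripts tested) and 116 were higher (7.03%, against 10.7%). A further 227 were not called, with a 95% interval of the log2 fold change that lay wholly above -1, that is, with a 2-fold fall outside the interval. Together with the 116 these are the 343 transcripts termed persisting (20.8%, against 34.8% of all tested). The remaining 692 (41.9%, against 48.9%) were unresolved. The median log2 fold change of the 1651 was -1.58, against -0.36 over all tested. The moulting libraries that chose the list also enter the comparison with male, so a fall from the level they were chosen for is in part built in, and the shares are a description. Without J4 replicates 7 and 8 the list held 1050 transcripts, 987 of them in common, with 385 lower in male, 74 higher and 216 persisting. A stricter list, higher in J4_moulting than in J4, J4_female and J3, held 795 transcripts. Of these 44.5% were lower in male, 2.64% higher and 10.8% persisting, so the shares depended on how the list was defined.

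The fate of the moult transcripts differed between the males. Without male replicates 2, 3 and 4, 340 of the 1651 were lower and 406 persisted. Without replicates 1, 5, 6 and 7, 683 were lower and 195 persisted. Of the 692 unresolved transcripts, 262 were called lower in the latter fit and 11 in the former. Accordingly, the share of the 692 above the moulting median was 3.47 to 8.67% in male replicates 2, 3 and 4 and 31.1 to 46.5% in the other 4 males. In both fits 230 of the 616 were lower, 47 of the 116 were higher and 149 of the 343 persisted.

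How many transcripts ended depended on which males were taken. Of the 616 that fell, 72 were under 1 CPM in every male (4.36% of the list, against 8.53% of all transcripts tested), 20 of them with no count in any male. Without male replicate 1 the number was 136, and without male replicates 1, 5, 6 and 7 it was 374. Without male replicates 2, 3 and 4 it was 75. The rule of under 1 CPM in every male is easier to meet with fewer males, so these numbers are not like for like. With all males the number was 23 by limma voom, 27 at a limit of 0.2 CPM and 2 in the deposited filtered table. In the moulting animals the 72 held 0.941 ± 0.740% of the counts (SD, n = 14), from 0.0257% in replicate 14 to 2.03% in replicate 4. They were unevenly held there as well, with 24 of the 72 at 1 CPM or more in replicate 14 and 71 in replicate 5. Only 5 of the 72 reached 1 CPM in all 14 moulting animals (6.94%), against 84.8% of the 343 persisting transcripts and 44.2% of all transcripts tested. The levels in J4_moulting also chose the list, so these shares are given without a test.

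The most abundant ended transcripts came from different moulting animals. Mi_20059.5 stood at 2171 to 11679 CPM in moulting replicates 3, 4, 5, 8, 11, 12 and 13 and at 37.7 CPM or less in the other 7. In male it ran from 0 to 0.977 CPM, median 0 (log2 fold change -12.12, SE 2.90, edgeR adjusted p = 0.00409). Mi_19572.1 had the opposite holders, at 12129 and 12779 CPM in moulting replicates 6 and 7, 894 in replicate 2, 112 in replicate 9 and 82.5 in replicate 14, with 6.86 or less in the rest. It was at most 0.263 CPM in male (-15.09, SE 3.75, adjusted p = 0.00525). Mi_23718.2 had no count in any male or J4 library, and ran from 0 to 2088 CPM in J4_moulting with a median of 62.9. By the same floor its pooled level was at least 27802-fold lower in male (adjusted p = 0.00216). With the spread between animals, the 95% edgeR interval of its log2 fold change ran from -23.01 to -9.11. Mi_10763.1 ran from 0 to 5568 CPM in the moulting animals, median 10.3, and had a count in male replicate 5 only, at 0.895 CPM (-12.23, SE 2.83, adjusted p = 0.00321). Mi_00477.1 ran from 0.504 to 1929 CPM, median 21.7, and the males held 3 counts together, all in replicate 3. The ratio of its pooled levels was 17661 (95% exact counting interval 6043 to 85643, adjusted p = 0.000492). With the spread between animals, the 95% edgeR interval of its log2 fold change ran from -18.34 to -8.15. Of these 5, Mi_20059.5 and Mi_19572.1 missed the threshold without male replicates 1, 5, 6 and 7 (adjusted p = 0.0663 and 0.0777). Mi_19572.1 also missed it without male replicates 2, 3 and 4 (0.0548), and Mi_20059.5 with the replicate number as a block (0.0523). By limma voom none of the 5 passed, with adjusted p values from 0.172 to 0.499. Mi_09055.1, described above, was also a moult-time transcript, at 1.08 ± 1.14 CPM in J4 (SD, n = 8), and Mi_32507.1 likewise had no count in males, with 0 to 1887 CPM in J4_moulting, median 33.1, and 0.498 ± 0.556 in J4.

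The other 544 of the 616 that fell reached 1 CPM in at least 1 male, and 89 of them (16.4%) did so in all 7. Among the 5212 decreases 12.2% did so in all 7, and among all transcripts tested 34.0%. The mean level of the 544 in male had a median of 3.12 CPM. They held 13.8 ± 4.98% of the counts in J4_moulting (SD, n = 14), 0.857 ± 0.330% in J4 (n = 8) and 0.6497 ± 0.415% in male (n = 7). Of the 616, 474 had a mean in male at or below the mean in J4, as did 5058 of the 5212 decreases over all transcripts tested. Mi_05756.1, described above, was one of the 544 and was at 0.205 CPM or less in male replicates 2, 3 and 4. The next 2 were present in every male. Mi_42971.1 ran from 136 to 763 CPM in male, median 495, and from 642 to 1783 in J4_moulting, median 1302, with 280 ± 323 CPM in J4, a log2 fold change of -1.50 (SE 0.41, edgeR adjusted p = 0.00991). Its groups overlapped between 642 and 763 CPM, and without male replicates 2, 3 and 4 it missed the threshold at an adjusted p of 0.0787. Mi_01083.1 ran from 46.7 to 558 CPM in male, median 250, and from 503 to 2819, median 962, with 323 ± 229 CPM in J4 (-1.76, SE 0.46, adjusted p = 0.00653). Its groups met only at their edges, between 503 and 558 CPM. Mi_41897.1, the largest loss in mean level described above, was also one of the 544. It passed narrowly as higher in J4_moulting than in J4 (8.05 on the log2 scale, SE 2.51, edgeR adjusted p = 0.0451).

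Among the persisting transcripts, 128 of the 343 (37.3%) were at 0.5 times the moulting median or more in every male. In every male 64 (18.7%) were above that median. For the 3417 increases these shares were 65.6 and 42.8%. They were not taken over all transcripts tested, and the 343 were themselves chosen by their levels in male. Mi_05019.1 had the highest male mean of the 128. It stood at 1236 to 6046 CPM in male, median 2513, against 328 to 1354 in J4_moulting, median 767, and 205 ± 169 CPM in J4 (SD, n = 8). It was called in both steps, higher in J4_moulting than in J4 (2.48 on the log2 scale, SE 0.39, with an edgeR adjusted p of 0.000327) and higher again in male than in J4_moulting (2.10, SE 0.39, adjusted p = 0.000435). Male replicates 5, 6 and 7 held 5016 CPM or more of it and the other 4 held 2513 or less. Mi_28981.1 ran from 207 to 1902 CPM in male, median 562, against 98.3 to 734, median 279 (1.56, SE 0.42, adjusted p = 0.00824), with 120 ± 121 CPM in J4. In male replicates 2, 3 and 4 alone its log2 fold change was 0.41 (adjusted p = 0.580). In both transcripts the highest moulting animals overlapped with the lowest males. Mi_00327.1 and Mi_05825.1 persisted without being called. They ran from 214 to 2641 and from 234 to 2522 CPM in male, against 15.6 to 1423 and 38.9 to 2168 in J4_moulting. Their log2 fold changes were 1.58 (95% interval 0.22 to 2.94, adjusted p = 0.0751) and 0.91 (-0.41 to 2.24, adjusted p = 0.299). These 4 transcripts were taken after their values had been seen, as those with the highest male mean of the 128.

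The persisting transcripts with the highest male mean were far higher in some males than in others. Mi_06983.1 stood at 19492, 10551 and 18857 CPM in male replicates 5, 6 and 7, at 728 in replicate 1 and at 1.63 or less in replicates 2, 3 and 4, against 1.27 to 1877 CPM in J4_moulting, median 233. Males thus lay on both sides of the moulting animals. It passed narrowly over all males, at 3.71 on the log2 scale (SE 1.37, edgeR adjusted p = 0.0463), and was lower than J4_moulting in replicates 2, 3 and 4 alone (-8.15, adjusted p = 0.0290). Leaving out male replicate 5, 6 or 7 ended the call, with adjusted p values of 0.0932, 0.0677 and 0.0884, as did leaving out any single moulting library other than replicates 1 and 9. Mi_44215.1 had 7629 to 14281 CPM in male replicates 5, 6 and 7 and 9.99 or less in replicates 2, 3 and 4 (3.87, SE 1.26, adjusted p = 0.0248), and missed the threshold without replicate 5 or 7 (0.0529 and 0.0508). Mi_37669.1 had 7430 to 14692 and 6.396 or less in the same animals and missed the threshold over all males (3.48, SE 1.34, adjusted p = 0.0552). Mi_38777.1 reached 15725 and 25685 CPM in male replicates 5 and 7, 449 in replicate 6 and 29.98 or less in the rest (5.33, SE 1.98, adjusted p = 0.0476), and the call ended without replicate 5 or 7 (0.0768 and 0.112) and without any single moulting library other than replicate 6. Mi_17785.1 stood at 7060 to 9531 CPM in replicates 5, 6 and 7, 1451 in replicate 1, and 14.1 to 104 in replicates 2, 3 and 4 (5.22, SE 1.07, adjusted p = 0.00123). Without replicates 1, 5, 6 and 7 its log2 fold change was -0.73 (adjusted p = 0.689). By limma voom Mi_06983.1, Mi_44215.1 and Mi_38777.1 did not pass (adjusted p = 0.924, 0.528 and 0.2004). For 93 of the 343 persisting transcripts (27.1%) at least 1 male was under 0.1 times the moulting median, as for 22.4% of the 3417 increases. The share over all transcripts tested was not taken.

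**Figure D4:**
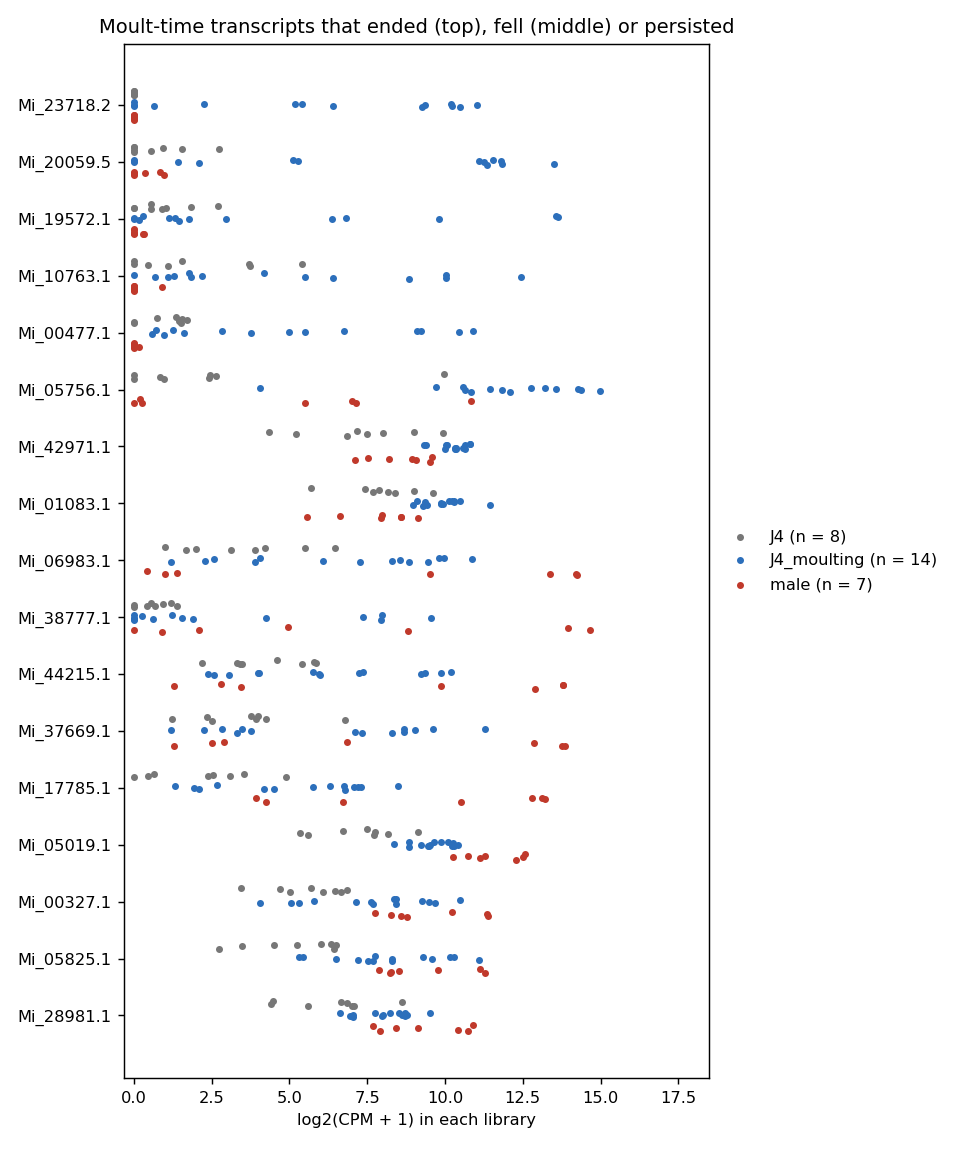
Level of named moult-time transcripts in each library as log2(CPM + 1), with J4 in grey, J4_moulting in blue and male in red. The first 5 rows ended in male, the next 3 fell but remained, the next 5 persisted on average with some males above every moulting animal and others within or below the moulting range, and the last 4 persisted with every male at 0.5 times the moulting median or more.

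The transcripts that moulting animals had lower than J4 stayed low in male. These 1106 transcripts (3.41% of 32417) held 20.5 ± 7.73% of the counts in J4 (SD, n = 8) and 2.72 ± 0.574% in J4_moulting (n = 14), shares they were chosen for. In male, which had no part in the choice, they held 2.64 ± 0.255% (n = 7), from 2.30 to 2.96%. The 8 J4_female libraries held 11.8 to 34.4% and the 7 female libraries 24.1 to 40.4%, so the males overlapped with neither. A low share was not particular to moulting animals and males, since the 5 pre_J2 libraries held 3.26 to 5.03%. Of the 992 that could be tested in male against J4_moulting, 74 were higher and 182 lower, 7.46 and 18.3% of the 992, against 10.7 and 16.3% of all transcripts tested. Their median log2 fold change was -0.45, against -0.36 over all.

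**Figure D5:**
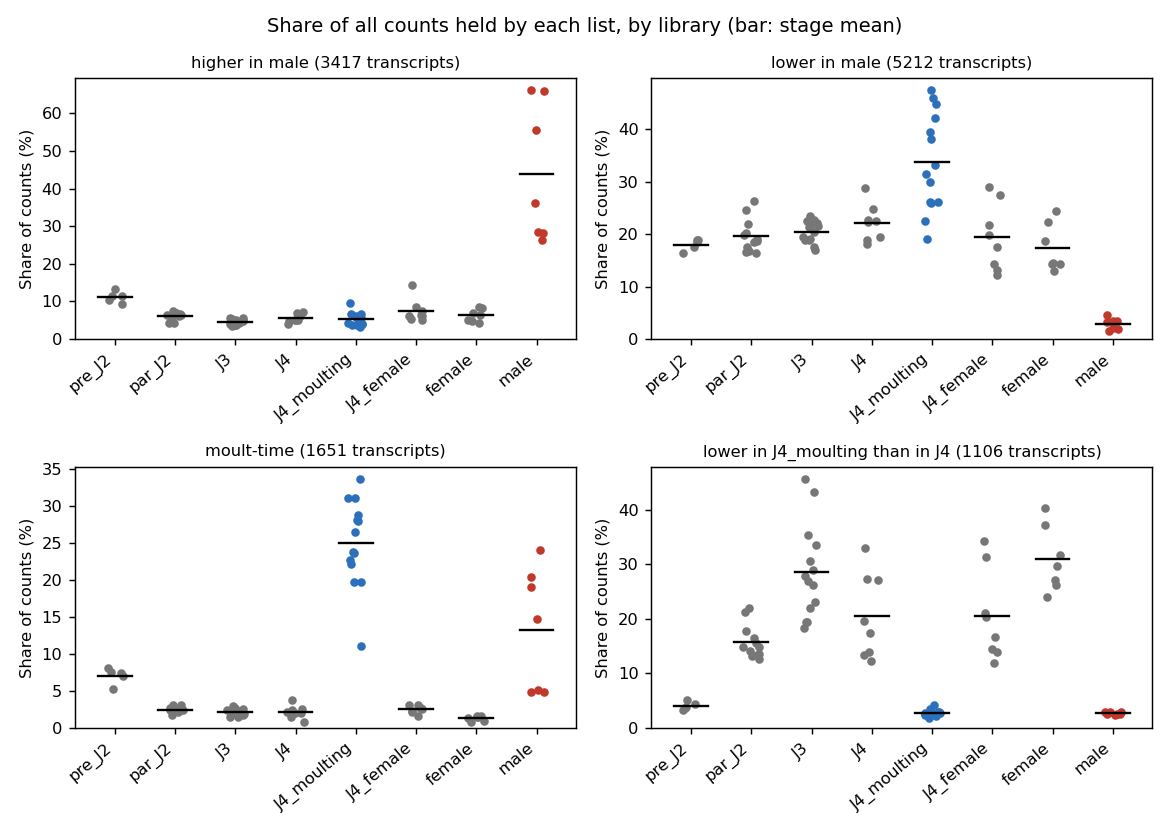
Share of all counts in percent held by 4 lists of transcripts in each of the 75 libraries, with a bar at the mean of each stage. The upper lists were chosen by the difference between male and J4_moulting and the lower ones by that between J4_moulting and J4. The list lower in J4_moulting than in J4 is at 2.30 to 2.96% in male, and the moult-time list splits the males into 3 libraries near 5% and 4 at 14.7% or more.

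In 6 genes 1 transcript rose and another fell, among 713 genes with more than 1 transcript tested and 226 of these with a called one. In 4 of the 6 the transcript that fell had no count in any male. Mi_38208.1 ran from 0 to 61.0 CPM in J4_moulting with no count in 7 of the 14 animals. By the floor of 3 counts its pooled level was at least 1095-fold lower in male (log2 fold change -11.52, SE 2.94, edgeR adjusted p = 0.00838). Mi_38208.2 of the same gene rose to 118 to 267 CPM in male, median 144, against a moulting median of 55.8 (log2 fold change 1.45, SE 0.35, adjusted p = 0.00397). Mi_39192.1 fell from a moulting median of 11.6 CPM to no count, while Mi_39192.2 had medians of 15.1 CPM in male and 13.8 in J4_moulting (1.71, SE 0.46, adjusted p = 0.00895), with 191 CPM in the highest male. The split of reads between transcripts of a gene is an estimate, so these pairs are uncertain.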

How the data were processed

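RNA was read from single nematodes of 8 stages by Smart-seq2, without molecular identifiers, and intervals or floors from counts therefore leave out every error other than that of counting. The deposited table holds raw counts for 45378 transcripts in 75 libraries, and a filtered copy made by the authors holds counts for 22287. HISAT2 2.2.1 and StringTie 2.2.1 are named in the submitters' processing notes; the genome build, annotation and strand setting were not given in the sources used here. Transcripts that share reads with near-identical copies are uncertain.

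The male and J4_moulting libraries were compared with edgeR 4.0.16 in R 4.3.3 (quasi-likelihood test, TMM scaling, filterByExpr, robust). A call needed a Benjamini-Hochberg adjusted p under 0.05 and a log2 fold change of at least 1 in size. SE is the fold change divided by the root of F. CPM is counts per 1000000 of the library total. J4_moulting against J4 was fitted in the same way. Alternatives used limma voom with sample weights (3.58.1), DESeq2 1.42.0, other scalings, filters and definitions, a replicate block, and libraries left out. Tables and figures used Python 3.11.15, numpy 2.4.6, pandas 2.3.3, scipy 1.17.1 and matplotlib 3.10.9. Tested on simulated counts for male against J4_moulting over 31948 transcripts, of which 200 were changed, the fit recovered 23% of the 4-fold and 67% of the 16-fold changes, with 0 in the wrong direction and 3.23% of calls false. The simulation changed few transcripts and gave each group a single mean, without the split among the males. Its rates therefore do not carry over to the calls made here.

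Named transcripts were, in each direction and 1 per gene, the 6 called with the smallest p among those at 1 CPM or more in 80% of the higher group, the 4 with the largest difference in mean CPM, and the 2 with the highest mean among those without counts in the lower group, of which there were 0 among the increases. Of the moult-time list they were the 5 ended with the highest moulting mean, and the 5 persisting, 5 higher and 3 lower but present with the highest male mean. The members and lists were chosen with earlier results of these data known. Libraries are single animals by the labels, replicates were numbered as titled, and no 2 libraries agreed within sampling noise. No batch is given, so batch and stage cannot be told apart.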

Additional observations from a re-analysis of the deposited data

Results flagged for a closer look

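Male replicate 4 stood apart from the other 6 males in how many transcripts it held. It had 18969 transcripts with a count, 17366 after thinning to 3000000 counts and 15024 at 1 CPM or more, the lowest of the males in each measure by a wide gap. Leaving it out together with moulting replicate 13, which had the fewest transcripts among the moulting animals, gave 3556 increases and 5800 decreases.

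A single male also decided the male level of 2 ended transcripts. Mi_10763.1 had counts in male replicate 5 alone, at 0.895 CPM, and Mi_00477.1 in male replicate 3 alone, at 0.123 CPM. These 5 came from 53 groups of values examined for a sample far from the rest. Those of male replicate 4 are versions of the same measure. A transcript with counts in a single male is flagged whatever its level there. A rate of about 1 group in 20 by chance therefore does not apply to them.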

How the results depend on the processing

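Decreases numbered 8578 without the low-count filter, 10886 by DESeq2 and 2481 in the deposited filtered table, which lists fewer transcripts. DESeq2, the filtered table and the fit without a filter put the share of increases among all calls at 25.4, 50.6 and 30.7%, against 39.6%. Of the moult-time list, 334 were lower and 2 ended in the filtered table, 388 were lower and 23 ended by limma voom, and 27 ended at a limit of 0.2 CPM. A stricter list of 795 transcripts, higher in J4_moulting than in J4, J4_female and J3, had 354 lower, 21 higher, 86 persisting and 32 ended. The list without J4 replicates 7 and 8 had 385 lower, 74 higher and 216 persisting. The following settings were added after seeing the data. Without male replicates 2, 3 and 4, 340 were lower and 75 ended. Without male replicates 1, 5, 6 and 7, 195 persisted and 374 ended. In these 2 fits 20 and 6 calls had the opposite direction. The log2 fold changes of Mi_25779.1, Mi_42693.2, Mi_25788.1 and Mi_17692.2 became -3.78, -5.21, -5.35 and -3.33 in the former. In the latter those of Mi_06983.1, Mi_38777.1, Mi_44215.1, Mi_37669.1, Mi_17785.1 and Mi_05825.1 became -8.15, -5.72, -5.16, -6.09, -0.73 and -0.12. These fits held fewer males, and the cause was otherwise not tested.

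With 1 library left out at a time, increases ranged from 2993 to 3679 and decreases from 4294 to 5917. Moult-time transcripts ranged from 541 to 719 lower, 105 to 131 higher, 304 to 393 persisting and 71 to 136 ended, the last without male replicate 1. Of 1173 values of the 37 named transcripts over the alternatives, 1067 kept their direction and their side of the threshold, 82 lost the call, 14 gained it and 10 reversed. Many of these alternatives leave out a single library and so differ little from the main fit. Counted by transcript, 20 of the 34 named transcripts that were called lost the call in at least 1 alternative.

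Replicate numbers did not pair the libraries. Libraries with the same number had correlations of deviations from -0.04 to 0.08, and in 0 of 7 was the own number the best partner. With the replicate block 2039 increases and 5675 decreases were called and 224 moult-time transcripts persisted.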

Other observations

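Among the other 6 stages, the transcripts higher in male than in J4_moulting most often had their highest mean in J4_female, 1332 of 3417 (39.0%, against 20.9% of all transcripts tested). In pre_J2 it was 675 (19.8%, against 15.9%) and in J4 645 (18.9%, against 32.0%). Under 1 CPM on average in all 6 were 144 (4.21%), against 225 of the 5212 decreases (4.32%). Together the 3417 held 43.8 ± 18.2% of the counts in male (SD, n = 7), from 26.2 to 66.1%, a share they were chosen for. They held 11.1 ± 1.55% in pre_J2 (n = 5), 7.41 ± 2.99% in J4_female (n = 8) and 4.53 to 6.34% on average in the remaining stages. Mi_25779.1, Mi_42693.2, Mi_25788.1 and Mi_17692.2, which stood highest in male replicates 2, 3 and 4, averaged 2418 to 2811 CPM in pre_J2 and 8.74 to 14.5 CPM in female.

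Mi_16111.1, Mi_11740.1 and Mi_14487.1, which were at or near 0 in male, were also at 0.106, 0.187 and 0 CPM on average in the 5 pre_J2 libraries. They averaged 87.3, 179 and 41.0 CPM in the 12 par_J2 libraries. Of the 72 ended transcripts, 31 were under 1 CPM on average in all of the other 6 stages (43.1%). Among the 5212 decreases it was 225 (4.32%), and among the 343 persisting transcripts 11 (3.21%). The moult-time list was chosen for lower levels in J4, 1 of the 6 stages, so part of this is built in. The share was not taken over all transcripts tested. Of the 343 persisting transcripts, 316 reached 1 CPM on average in J4_female (92.1%, against 87.8% of all transcripts tested) and 275 in pre_J2 (80.2%, against 73.0%).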
